A study of Mus musculus with 6 samples.

Results

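The 10 basement membrane genes Col4a1, Col4a2, Col4a5, Lama4, Lama5, Lamb2, Lamc1, Nid1, Hspg2 and Col18a1 were described in the proximal aorta by cell class and by smooth muscle subtype. They were chosen by symbol, and each of the 10 symbols matched 1 of the 31055 features that were counted. The cells were taken from the aorta between root and arch, from 6 mice, all female, 16 weeks old and on a 129SVE background. By the labels, 4 mice were controls (2 of them Tgfbr1+/+; Wnt2CRE; EGFP-L10a mice, in which cardiac neural crest (CNC) cells are traced by a reporter, and 2 Tgfbr1+/+ mice) and 2 were Tgfbr1M318R/+ mice, a model of Loeys-Dietz syndrome (LDS). All cells were sorted for a DNA dye and against propidium iodide, which enters dead cells. The counts are unique molecular identifiers (UMIs, each 1 captured transcript) from the 3′ end of the transcript.

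Cell barcodes carry a suffix, 1 to 6, by which 6 libraries can be separated. No source used here pairs a number with a mouse, so control and LDS mice were not compared, and no p-value was computed. A direction seen in all 6 libraries was seen in libraries of both genotypes. The reporter transcript reached at least 100 UMIs in 4 libraries and 6 to 8 UMIs in the others, while the labels list it in 2 mice. After filtering, 24972 of 30716 barcodes were kept, with 18218282 to 38105145 UMIs per library and medians of 5572 to 9838 UMIs per cell. Among these cells, 76 barcode sequences occurred in more than 1 library. Leaving these cells out ended the common direction of Lamb2 between the smooth muscle subtypes, where library 2 lies at about 0.

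The basement membrane is a thin sheet of matrix under endothelium and around each smooth muscle cell. Laminins, cross-shaped trimers of an alpha, a beta and a gamma chain, bind integrins and dystroglycan at the cell surface and form a first network. Collagen IV, a trimer of alpha chains, forms a second network that gives the sheet its strength, and nidogen and the heparan sulfate proteoglycan perlecan join the networks. Collagen XVIII, another heparan sulfate proteoglycan, lies on the outer side and carries endostatin at its end.

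Col4a1 and Col4a2 encode the alpha1 and alpha2 chains of collagen IV and lie head to head on chromosome 8. In GENCODE M21 (mm10), Col4a1 (ENSMUSG00000031502) runs on the minus strand at chr8:11198423-11312826 and Col4a2 (ENSMUSG00000031503) on the plus strand at chr8:11312805-11449287. Their RefSeq start sites are 21 bases apart. The RefSeq (GRCm38.p6) promoter windows of both (250 bases before to 50 after the start) share 78 bases. They are shown because both genes start in this interval. Of any pair of the 10 genes, the log2 levels of these had the highest correlation over classes and libraries (Pearson r = 0.96). Capitals mark CCAAT and GGGCGG, searched on both strands, so that ATTGG and CCGCCC are the same motifs on the other strand. The windows are those at chr8:11312777-11313076 on the minus strand and chr8:11312555-11312854 on the plus strand, each written 5′ to 3′ for its own gene.
Col4a1: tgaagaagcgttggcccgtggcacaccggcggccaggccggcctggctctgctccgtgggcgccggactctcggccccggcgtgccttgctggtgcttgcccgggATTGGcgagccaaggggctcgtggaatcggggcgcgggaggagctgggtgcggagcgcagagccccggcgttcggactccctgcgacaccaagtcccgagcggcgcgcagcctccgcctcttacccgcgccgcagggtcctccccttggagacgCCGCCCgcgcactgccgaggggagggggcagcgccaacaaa
Col4a2: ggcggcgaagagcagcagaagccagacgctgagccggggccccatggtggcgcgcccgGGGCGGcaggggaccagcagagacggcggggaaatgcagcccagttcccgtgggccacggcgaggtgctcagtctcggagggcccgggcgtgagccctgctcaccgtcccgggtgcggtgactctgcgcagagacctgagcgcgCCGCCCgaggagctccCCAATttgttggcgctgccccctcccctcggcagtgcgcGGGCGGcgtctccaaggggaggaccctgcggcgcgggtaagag
Of 32851 RefSeq windows of this length, 37.4% held CCAAT, 35.7% GGGCGG and 13.6% TATAAA. The Col4a1 window held 1 CCAAT and 1 GGGCGG, the Col4a2 window held 1 and 3, and neither held TATAAA. The G and C share was 74.0% in the Col4a1 window and 73.7% in the Col4a2 window, against a median of 52.7% over all windows. These are matches of letters in a window and not measured binding.

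The other genes lie apart from each other, except that Lama4 and Col18a1 are both on chromosome 10. Col4a5 (collagen IV alpha5) is at chrX:141475385-141689234 on the plus strand. The laminin alpha chains are at chr10:38965515-39110188 (Lama4, plus strand) and chr2:180176373-180225859 (Lama5, minus strand). Lamb2 (laminin beta2) is at chr9:108479736-108490530 on the plus strand and Lamc1 (laminin gamma1) at chr1:153218922-153332786 on the minus strand. Nid1 (nidogen 1) is at chr13:13437551-13512269 and Hspg2 (perlecan) at chr4:137468769-137570630, both on the plus strand. Col18a1 is at chr10:77052178-77166548 on the minus strand and overlaps Slc19a1 on the other strand. Col4a1, Col4a2 and Nid1 each overlap an antisense gene that was also counted, and whether counting used the strand is not given in the sources used here.

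Cells were named from marker genes after clustering without these 10 genes and the related lists below. VSMC-like (vascular smooth muscle) cells numbered 10427, fibroblast-like cells 13424, endothelial-like cells 571 and leukocyte-like cells 445, and 105 cells stayed unnamed. Among VSMC-like cells, 8336 were VSMC1-like and 2074 VSMC2-like, named by higher Tes and Ptprz1 in the former and higher Enpep and Notch3 in the latter. A further 17 held cardiomyocyte transcripts. Endothelial-like cells were few, 35 to 256 in libraries 1 to 5 and 10 in library 6, where all UMIs of the class summed to 78265 and a gene with 0 UMIs could reach 38.3 CPM (3 counts). Classes were named by their marker lists, so the marker levels describe the classes and do not check the names. The 8 endothelial markers summed to 3533 to 4949 CPM (counts per 1000000 UMIs of the summed cells) in endothelial-like cells. In VSMC1-like cells they summed to 9.78 to 56.4 CPM. Doublets, barcodes that may hold a pair of cells, were marked in 9.35% of the VSMC2-like class and 1.10% of the VSMC1-like class. The 8 fibroblast markers summed to 1319 to 6105 CPM (median 3091 CPM) in VSMC2-like and to 694 to 1256 CPM (median 989 CPM) in VSMC1-like cells, and 7 of the 8 were higher there in all 6 libraries.

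Summed over the 10 genes, the median level was highest in VSMC1-like and lowest in leukocyte-like cells. The summed level was 1939 to 2514 CPM (median 2091 CPM) in VSMC1-like, 1494 to 1939.5 CPM (median 1640 CPM) in VSMC2-like, 677 to 1686 CPM (median 1359 CPM) in endothelial-like, 956 to 1552 CPM (median 1217 CPM) in fibroblast-like and 47.0 to 353 CPM (median 211 CPM) in leukocyte-like cells. The ranges of VSMC1-like and VSMC2-like cells overlapped slightly, and those of VSMC1-like and fibroblast-like cells did not overlap. Without Col18a1 the summed level was 1226 to 1643 CPM (median 1391 CPM) in VSMC1-like, 562 to 1481 CPM (median 1307 CPM) in endothelial-like and 937 to 1505 CPM (median 1180.2 CPM) in fibroblast-like cells. In VSMC2-like cells the summed level without Col18a1 was 1132 to 1418 CPM (median 1278 CPM). All these ranges overlapped. Within a library, VSMC2-like cells were below VSMC1-like cells in 5 of 6, endothelial-like cells in 3 of 6 and fibroblast-like cells in 6 of 6 libraries. VSMC-like cells held 94.9% of all Col18a1 UMIs and 87.4% of Lama5 UMIs, while fibroblast-like cells held 92.2% of Nid1 UMIs and 75.3% of Lamc1 UMIs. With each cell thinned to 3000 UMIs, a VSMC1-like cell held UMIs of 4 of the 10 genes at the median, a VSMC2-like or endothelial-like cell of 3, a fibroblast-like cell of 2 and a leukocyte-like cell of 0. Thinning left out 482 VSMC1-like, 94 VSMC2-like, 154 endothelial-like, 1206 fibroblast-like and 65 leukocyte-like cells with fewer UMIs.

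**Figure D1:**
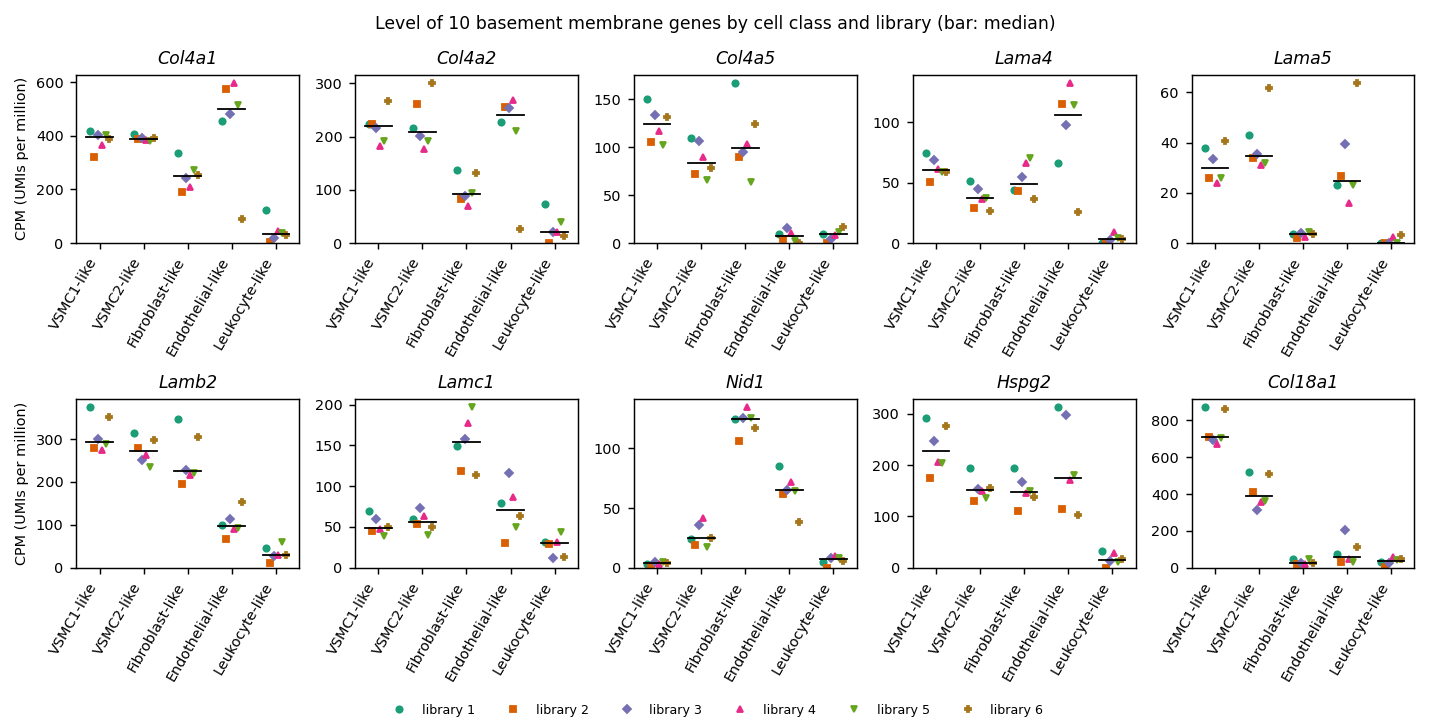
Level of each gene in CPM (vertical axis, from 0, its own scale in each panel) in 5 cell classes, 1 point per library and a bar at the median. Col18a1 stands high in both VSMC classes and Nid1 and Lamc1 in fibroblast-like cells. Lama5 is low in fibroblast-like and leukocyte-like cells, and its endothelial-like points overlap both VSMC classes. Col4a5 is near 0 in endothelial-like cells, while library 6, with 10 endothelial-like cells, sits low there for Col4a1 and Col4a2.

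Col4a1 and Col4a2, the chains of the common collagen IV trimer, were highest in endothelial-like cells at the median and had no common direction between the smooth muscle subtypes in the main setting. The 7 pericyte markers summed to 25.6 to 1994.5 CPM (median 821 CPM) in endothelial-like and 365 to 902 CPM (median 600 CPM) in VSMC-like cells. Marked doublets were 6.83% of endothelial-like cells. The part of either in these collagen IV levels was not tested. Col4a1 was at 89.4 to 599 CPM (median 499 CPM) in endothelial-like, 321 to 417 CPM (median 395 CPM) in VSMC1-like, 379 to 406 CPM (median 389 CPM) in VSMC2-like, 189 to 337 CPM (median 249 CPM) in fibroblast-like and 3.61 to 124 CPM (median 33.0 CPM) in leukocyte-like cells. The first 3 classes overlapped. Fibroblast-like cells lay below VSMC2-like cells without overlap. They overlapped VSMC1-like cells slightly, at 337 CPM in library 1 of the former and 321 CPM in library 2 of the latter. Leukocyte-like cells lay below all other classes except for the endothelial-like cells of library 6, a value that rests on 7 UMIs. Col4a2 was at 25.6 to 269 CPM (median 240.1 CPM) in endothelial-like, 181 to 266 CPM (median 220 CPM) in VSMC1-like, 176 to 301 CPM (median 208 CPM) in VSMC2-like and 69.9 to 138 CPM (median 91.5 CPM) in fibroblast-like cells, the same order of classes. Leukocyte-like cells, at 0 to 73.4 CPM (median 20.5 CPM), overlapped fibroblast-like cells here.

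Col4a5, a chain of the trimers alpha3-alpha4-alpha5 and alpha5-alpha5-alpha6, followed another pattern. It was at 103 to 150.2 CPM (median 124 CPM) in VSMC1-like, 63.8 to 167 CPM (median 98.8 CPM) in fibroblast-like and 65.7 to 109 CPM (median 84.0 CPM) in VSMC2-like cells. In endothelial-like cells it was at 0 to 15.8 CPM (median 7.14 CPM), which overlapped the level in leukocyte-like cells, at 0 to 16.7 CPM (median 9.001 CPM). The endothelial level rests on 33 UMIs in 571 cells, and after thinning 2.88% of endothelial-like cells (95% exact interval 1.496% to 4.97%) and 1.58% of leukocyte-like cells (0.582% to 3.40%) held a Col4a5 UMI, against 30.4% of VSMC1-like cells. Before thinning the shares were 4.203%, 3.596% and 55.9%. Leukocyte-like cells served as the background of free RNA, and by that measure Col4a5 was not detectable above background in endothelial-like cells. These intervals cover counting error alone, since cells are not replicates.

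The laminin alpha chains divided the classes. Lama4, the alpha4 chain of endothelial and smooth muscle laminins, was at 25.6 to 133 CPM (median 106 CPM) in endothelial-like, 50.0 to 74.8 CPM (median 60.1 CPM) in VSMC1-like, 36.2 to 70.6 CPM (median 49.1 CPM) in fibroblast-like and 26.1 to 50.9 CPM (median 37.1 CPM) in VSMC2-like cells, each overlapping the next in order. Lama5, the alpha5 chain, was at 30.9 to 61.5 CPM (median 34.7 CPM) in VSMC2-like, 24.0 to 40.6 CPM (median 29.7 CPM) in VSMC1-like and 15.7 to 63.9 CPM (median 24.8 CPM) in endothelial-like cells, and these ranges overlapped. Fibroblast-like cells were lower without overlap, at 1.93 to 4.33 CPM (median 3.69 CPM). After thinning, a Lama5 UMI was found in 0.925% of fibroblast-like cells (95% exact interval 0.763% to 1.11%) and in 0 of 380 leukocyte-like cells, which allows a share of up to 0.966% by the exact interval. That interval is too wide to tell whether the fibroblast share was above background. Before thinning the shares were 1.97% and 0.899%.

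Lamb2, a beta chain of vascular laminins, was at 274 to 375 CPM (median 294 CPM) in VSMC1-like, 234 to 314 CPM (median 272 CPM) in VSMC2-like, 195 to 347 CPM (median 225 CPM) in fibroblast-like and 66.3 to 153 CPM (median 96.2 CPM) in endothelial-like cells. The first 3 classes overlapped, and endothelial-like cells lay below them without overlap. Lamc1, the gamma chain that most laminins share, was highest in fibroblast-like cells, at 114 to 197 CPM (median 154 CPM), next to 30.9 to 116 CPM (median 71.4 CPM) in endothelial-like, 39.7 to 73.0 CPM (median 56.5 CPM) in VSMC2-like and 39.1 to 69.8 CPM (median 49.0 CPM) in VSMC1-like cells. Fibroblast-like cells lay above both VSMC classes without overlap.

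The linker nidogen 1 was highest in fibroblast-like cells. Nid1 was at 106 to 135 CPM (median 125 CPM) in fibroblast-like, 38.3 to 85.5 CPM (median 64.9 CPM) in endothelial-like, 17.5 to 42.1 CPM (median 24.7 CPM) in VSMC2-like and 1.87 to 4.92 CPM (median 3.92 CPM) in VSMC1-like cells, which overlapped the leukocyte level of 0 to 10.1 CPM (median 6.99 CPM). After thinning, 6.26% of VSMC2-like cells (95% exact interval 5.24% to 7.42%), 1.27% of VSMC1-like cells (1.04% to 1.55%) and 1.05% of leukocyte-like cells (0.288% to 2.67%) held a Nid1 UMI, at median depths of 6983, 7225 and 5620 UMIs before thinning. The unthinned shares were 15.2%, 2.88% and 2.92%. The thinned VSMC1-like share lay within the background interval and the VSMC2-like share above it.

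Hspg2, the core of perlecan, was at 174 to 292 CPM (median 227 CPM) in VSMC1-like, 102 to 312 CPM (median 176 CPM) in endothelial-like, 129 to 194 CPM (median 152 CPM) in VSMC2-like and 110.4 to 194 CPM (median 147 CPM) in fibroblast-like cells, all overlapping. Col18a1 was at 673 to 871 CPM (median 708 CPM) in VSMC1-like, 311 to 522 CPM (median 387 CPM) in VSMC2-like, 30.9 to 205 CPM (median 60.9 CPM) in endothelial-like, 3.61 to 58.0 CPM (median 35.8 CPM) in leukocyte-like and 18.8 to 49.6 CPM (median 25.0 CPM) in fibroblast-like cells. VSMC1-like, VSMC2-like and endothelial-like cells did not overlap each other, and the last 3 classes overlapped.

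The comparison of VSMC2-like with VSMC1-like cells asks how basement membrane transcripts differ between the smooth muscle subtypes whose transcripts the study placed in the ascending aorta (VSMC1) and the aortic root (VSMC2). Ratios were taken within each library, and a gene was called where all 6 libraries had the same sign. The limit of at least 10 CPM among VSMC-like cells was passed by 9 of the 10 genes and not by Nid1. Of these 9, 5 were lower and 1 was higher in VSMC2-like cells in all 6 libraries. Over all 7706 genes tested, 22.1% were lower and 13.3% higher in all 6 (percent of genes called by this rule). The median log2 ratio of the 9 genes was -0.25, beside -0.05 over all genes tested.

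Col18a1 had the lowest ratio, with log2 ratios of -1.16 to -0.74 over the 6 libraries (median -0.85, a level 1.801 times higher in VSMC1-like cells). Lama4 was at -1.17 to -0.56 (median -0.69), Hspg2 at -0.83 to -0.43 (median -0.59) and Col4a5 at -0.76 to -0.32 (median -0.50), each lower in VSMC2-like cells throughout (6 of 6). When the clustering used every variable gene, these genes included, Hspg2 and Col4a5 were lower in 5 of 6 libraries, both at a median log2 ratio of -0.23. Lamb2 was also lower in 6 of 6, at -0.30 to -0.0041 (median -0.25), but library 2 was at about 0, and centring the ratios on the median gene, at a median log2 ratio of -0.17, left 5 of 6 libraries below 0. Lama5 alone was higher in 6 of 6, with log2 ratios of 0.08 to 0.60 (median 0.34), from 609 UMIs of VSMC2-like and 2023 UMIs of VSMC1-like cells. With each cell weighted alike (the mean of the cells' CPM) it was higher in 5 of 6 libraries, with a median of 0.30, and without cells holding a UMI of the pericyte genes Higd1b or Vtn in 5 of 6, with a median of 0.24.

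Col4a1, Col4a2 and Lamc1 had no common direction in the main setting. Col4a1 was higher in 3 and lower in 3 libraries (log2 ratios of -0.09 to 0.27, median -0.01), Col4a2 was higher in 2 (-0.11 to 0.22, median -0.02) and Lamc1 in 4 (-0.22 to 0.39, median 0.14). These medians were smaller than the spread between libraries. The direction depended on the processing. At least 1 of these genes was higher in all 6 libraries with log-normalized counts, and likewise with cells holding markers of another class left out.

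Nid1, under the limit on low genes, had the largest ratio of the 10, with log2 ratios of 1.82 to 3.58 (median 2.88, 7.35 times higher in VSMC2-like cells) from 446 UMIs in VSMC2-like and 257 UMIs in VSMC1-like cells. Nid1 was high in fibroblast-like cells, and the fibroblast markers and the share of cells marked as doublets were also higher in VSMC2-like cells. With marked cells removed the median log2 ratio of Nid1 was 2.57, and with all VSMC-like cells left out that held a UMI of an endothelial (Pecam1, Cdh5 or Emcn) or fibroblast (Dpt, Lum or Pdgfra) marker it was 2.60, both in 6 of 6 libraries. With log-normalized counts clustered without integration, which gave 1417 VSMC2-like cells, it was 1.77, the lowest value under any alternative tried, also in 6 of 6.

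**Figure D2:**
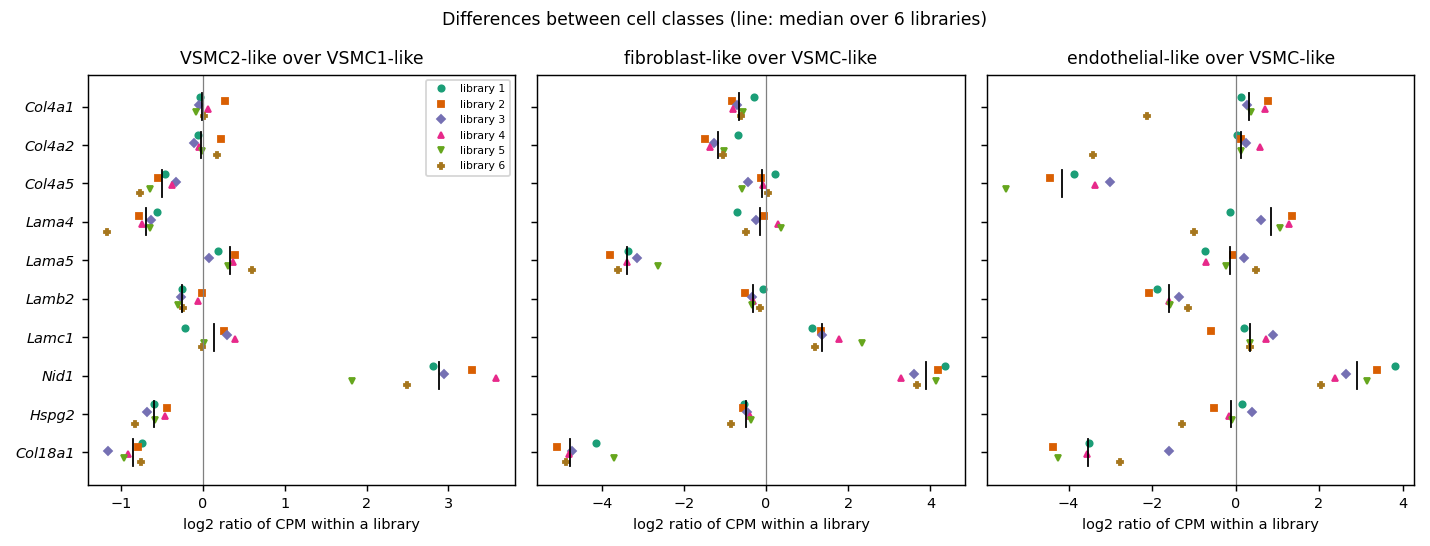
Log2 ratio of CPM within each library (horizontal axis) for the 10 genes in 3 comparisons, 1 point per library and a line at the median. Between the smooth muscle subtypes Col18a1, Lama4, Hspg2, Col4a5 and Lamb2 lie to the left of 0 and Lama5 and Nid1 to the right, and against fibroblast-like and endothelial-like cells the ratios spread over a wider range. The endothelial-like ratio of Col4a5 in library 6, with 0 UMIs, is not drawn.

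Against VSMC-like cells, fibroblast-like cells had fewer transcripts of most of the 10 genes. Of the 10, 6 were lower and 2 higher in all 6 libraries, beside 34.6% lower and 37.9% higher of 8732 genes tested (percent of genes called), with a median log2 ratio of -0.41 beside 0.02 over all genes tested. Col18a1 was at -5.10 to -3.69 (median -4.77, 27.2 times lower), Lama5 at -3.81 to -2.62 (median -3.38), Col4a2 at -1.48 to -0.69 (median -1.16) and Col4a1 at -0.83 to -0.30 (median -0.66). Hspg2 (median -0.49) and Lamb2 (median -0.33) were also lower in 6 of 6. Nid1 was higher by a log2 ratio of 3.28 to 4.37 (median 3.90, 14.9 times) and Lamc1 by 1.13 to 2.33 (median 1.35). Col4a5 (median -0.09) and Lama4 (median -0.15) had higher values in 2 of 6 libraries and no common direction.

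Endothelial-like cells were compared with VSMC-like cells in the same way. Of the 10 genes, 1 was higher and 3 lower in all 6 libraries, beside 24.9% higher and 18.8% lower of 9247 genes tested (percent of genes called). The median log2 ratio of the 10 genes was 0.01, beside 0.17 over all genes tested. The median gene stood at 0.05 to 0.24 (median 0.13) in the single libraries, so a ratio of that size is that of a typical gene, as for Col4a2. Nid1 was higher, with log2 ratios of 2.06 to 3.82 (median 2.90). With cells that held markers of another class left out, Nid1 was higher in 5 of 6 libraries (median 3.455), which ended its call. The 8 fibroblast markers summed to 1035 to 7194 CPM (median 2445 CPM) in endothelial-like and 837 to 2557 CPM (median 1368 CPM) in VSMC-like cells, and their part in the Nid1 level was not tested beyond this. By contrast, Col4a5 (median -4.15, with 0 UMIs in library 6), Col18a1 (-4.37 to -1.60, median -3.54) and Lamb2 (-2.08 to -1.15, median -1.58) were lower. Col4a1 and Col4a2 were higher in libraries 1 to 5, with log2 ratios of 0.14 to 0.77 and 0.03 to 0.59, and lower in library 6, where 7 and 2 UMIs were counted. Without library 6, 3 of the 10 genes were higher in every library, Nid1, Col4a1 and Col4a2, and so were 3134 of all genes tested in place of 2303. Lama4 was higher in 4 of 6 libraries (median 0.84), Lamc1 in 5 (median 0.35), and Hspg2 and Lama5 in 2 each.

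The ratio of UMIs between chains of a family, within a library, shows how the balance of their transcripts differed between classes. The make-up of the protein networks was not measured. Each transcript is captured with its own efficiency, so a ratio is compared between classes and its own size is not read. The Col4a2 to Col4a1 ratio was 0.48 to 0.70 (median 0.54) in VSMC1-like, 0.46 to 0.77 (median 0.52) in VSMC2-like, 0.29 to 0.53 (median 0.45) in endothelial-like and 0.33 to 0.52 (median 0.39) in fibroblast-like cells, with all classes overlapping. Within a library, it was lower in fibroblast-like and in endothelial-like than in VSMC1-like cells in 6 of 6 libraries, and lower in VSMC2-like than in VSMC1-like cells in 4 of 6. The Col4a5 to Col4a1 ratio was 0.23 to 0.50 (median 0.48) in fibroblast-like, 0.26 to 0.36 (median 0.33) in VSMC1-like, 0.17 to 0.27 (median 0.22) in VSMC2-like and 0 to 0.03 (median 0.01) in endothelial-like cells, and the ranges of the first 3 classes overlapped. Within a library, it was lower in VSMC2-like than in VSMC1-like cells, and higher in fibroblast-like than in VSMC2-like cells, in 6 of 6 libraries.

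The Lama5 to Lama4 ratio differed between the smooth muscle subtypes without overlap. It was 0.39 to 0.69 (median 0.50) in VSMC1-like and 0.80 to 2.36 (median 0.85) in VSMC2-like cells, with the highest value in library 6, and 0.04 to 0.10 (median 0.07) in fibroblast-like cells. Endothelial-like cells were at 0.12 to 0.40 in libraries 1 to 5 and at 2.5 in library 6, from 5 and 2 UMIs. The Lamb2 to Lamb1 ratio was highest in VSMC1-like cells, at 164 to 719 (median 213), since only 84 UMIs of Lamb1, the other common beta chain, were counted there. It was 16.8 to 98.8 (median 55.8) in VSMC2-like, 3.48 to 11.03 (median 5.71) in fibroblast-like and 1.03 to 4 (median 1.84) in endothelial-like cells. Fibroblast markers and marked doublets were also higher in VSMC2-like than in VSMC1-like cells.

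Col15a1 encodes collagen XV, the relative of collagen XVIII. The Col15a1 to Col18a1 ratio was 6.01 to 20.9 (median 12.2) in fibroblast-like cells and 0.20 to 0.40 (median 0.31) in VSMC1-like cells, without overlap. In VSMC2-like cells it was 0.11 to 0.41 (median 0.17). In endothelial-like cells it ranged from 0.11 to 3.69, with 0.16 and 0.11 in libraries 3 and 6 and at least 1.41 in the others. Nid2 encodes the other nidogen, and the Nid2 to Nid1 ratio was 0.42 to 1.125 (median 0.74) in VSMC1-like cells, from 165 and 257 UMIs, 0.14 to 0.23 (median 0.18) in VSMC2-like and 0.09 to 0.12 (median 0.11) in fibroblast-like cells. Here too, the fibroblast markers and marked doublets were higher in VSMC2-like than in VSMC1-like cells.

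**Figure D3:**
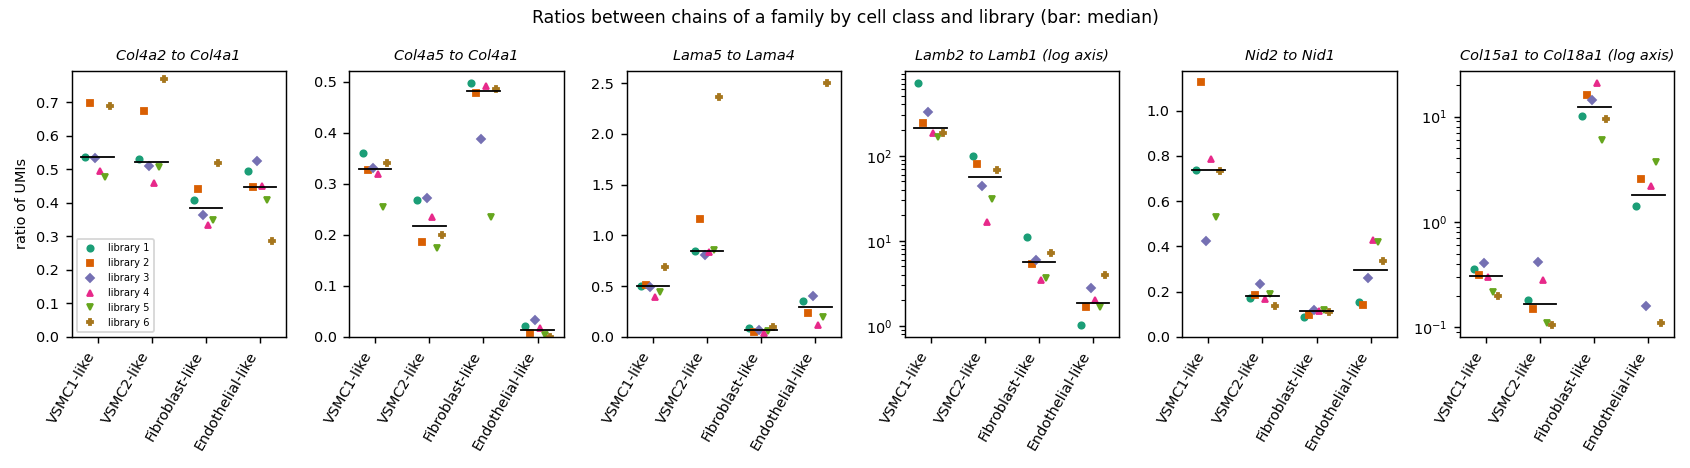
Ratio of UMIs of 2 chains of a family within a library (vertical axis; logarithmic for Lamb2 to Lamb1 and Col15a1 to Col18a1, linear from 0 for the rest) in 4 cell classes, 1 point per library and a bar at the median. The Lama5 to Lama4 points of VSMC2-like cells all lie above those of VSMC1-like cells, and the Col15a1 to Col18a1 points of fibroblast-like cells lie above all others.

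VSMC-like cells were clustered again at a resolution of 0.5 to see how the genes varied within the subtypes. Levels are over all libraries, and ranges are over libraries with at least 20 cells of the cluster. Cluster 9 (561 cells, led by Olfr558, Acta1, Nrip2, Kcna5 and Pgam2) and cluster 4 (786 cells, led by Col8a1, Ankrd1, Gja4, Enpep and Palld) were VSMC2-like. In cluster 9, Lama4 was at 7.76 to 26.4 CPM (median 10.8 CPM) and Lama5 at 49.1 to 88.5 CPM (median 57.2 CPM). In cluster 0, the largest VSMC1-like cluster (2019 cells, led by Tes, Krt18, Mylk4, Npr1 and Ccdc42), Lama4 was at 56.7 to 79.0 CPM and Lama5 at 19.7 to 34.1 CPM, so both ranges were apart from those of cluster 9, in opposite directions. Cluster 4 had Lama4 at 40.6 to 73.5 CPM and Lama5 at 27.4 to 64.4 CPM, overlapping cluster 0 in both.

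Col4a5 was lower in both VSMC2-like clusters, at 45.7 to 95.6 CPM in cluster 9 and 54.5 to 89.6 CPM in cluster 4, than in cluster 0, at 92.3 to 135 CPM, the first pair overlapping slightly. The third large VSMC2-like cluster, cluster 8 (591 cells, led by Fst, Fxyd6, Lum, 1500015O10Rik and Angptl7), did not share this, with Col4a5 at 87.8 to 153 CPM and Lama5 at 11.5 to 39.3 CPM. Its Col18a1 was at 242 to 542 CPM and that of cluster 4 at 297 to 501 CPM, both below the 603 to 798 CPM of cluster 0, and that of cluster 9, at 303 to 630 CPM, overlapped it.

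Nid1 was at 9.89 to 22.8 CPM in cluster 9, 11.1 to 27.5 CPM in cluster 4 and 14.5 to 50.2 CPM in cluster 8, all above the 1.59 to 4.57 CPM of cluster 0. Cells marked as doublets were 0.357% of cluster 9, 1.78% of cluster 4 and 8.63% of cluster 8. The highest Nid1 level, 84.3 CPM over all libraries, was in cluster 12 (162 cells, led by Clec3b, Abca8a, Cygb, Ly6a and Pi16), where 79.6% of the cells were marked as doublets. Cluster 3 (825 cells, led by Gm26699, Carmn, AY036118, Tnxb and CT025619.1) had the highest level over all libraries of 7 of the 10 genes, Col4a1 (516 CPM), Col4a2 (334 CPM), Col4a5 (160.2 CPM), Lama4 (88.7 CPM), Lamb2 (479 CPM), Hspg2 (381 CPM) and Col18a1 (1136 CPM). Its cells were shallow, with a median of 4507 UMIs against 7673 UMIs in cluster 0. Cluster 2 (1169 cells, led by Gm17056, Atf3, Socs3, Fosb and Gdf15), with a median of 4391 UMIs, came next for Col4a1, Lamb2 and Col18a1, and the part of depth in these levels was not tested.

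**Figure D4:**
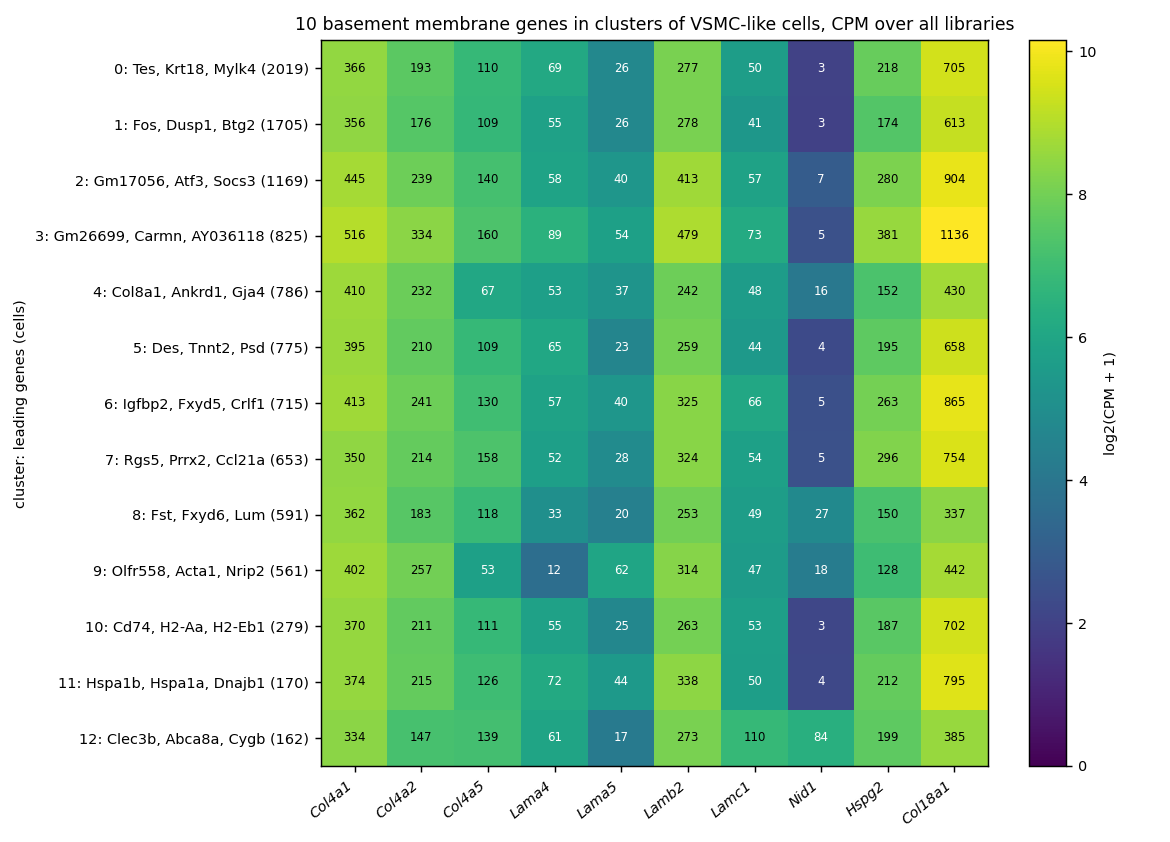
Level in CPM over all libraries (numbers in the cells) of the 10 genes in 13 clusters of VSMC-like cells at a resolution of 0.5, with color as log2(CPM + 1). Clusters 4, 8, 9 and 12 hold VSMC2-like cells, and Col18a1 is 337 to 442 CPM there and at least 613 CPM in the others.

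Fibroblast-like cells were not uniform. Cluster 0 of all cells (5686 cells, led by Has1, Spon2, Tnfaip6, Ccl11 and Ifi211) had Lama4 at 76.9 to 116 CPM (median 97.3 CPM), Lamc1 at 193 to 316 CPM (median 284 CPM) and Nid1 at 169 to 214 CPM (median 198 CPM). Cluster 2 (4373 cells, led by Pex5l, Hhip, F3, Dio2 and Hsd11b1) had Lama4 at 16.9 to 27.0 CPM (median 19.3 CPM), Lamc1 at 71.7 to 91.1 CPM (median 82.1 CPM) and Nid1 at 82.2 to 114 CPM (median 99.2 CPM). The ranges of each of these 3 genes did not overlap between the clusters. Col4a5 had the other order, at 41.3 to 110.0 CPM (median 70.6 CPM) in cluster 0 and 109.7 to 218 CPM (median 161 CPM) in cluster 2, and the ranges just met. Fibroblast cluster 8 (766 cells, led by Coch, Prss35, Npy, Sez6l and 2700046A07Rik) had the lowest Col4a1, at 41.8 to 136 CPM, below the other 4 fibroblast-like clusters.

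The endothelial-like cells fell into 2 clusters, whose ranges overlapped for the genes given here. Cluster 11 (335 cells, led by Gpihbp1, Rbp7, Cd36, Cd300lg and Aqp7) had Col4a1 at 446 to 765 CPM (median 642 CPM) over 5 libraries and Col18a1 at 22.9 to 76.9 CPM. Cluster 12 (236 cells, led by Ccl21a, Mmrn1, Nts, Serpina1b and Flt4) had Col4a1 at 297 to 499 CPM (median 368 CPM) and Col18a1 at 51.4 to 272 CPM over 3 libraries. Gpihbp1 is known from capillary and Flt4 from lymphatic endothelium.

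**Figure D5:**
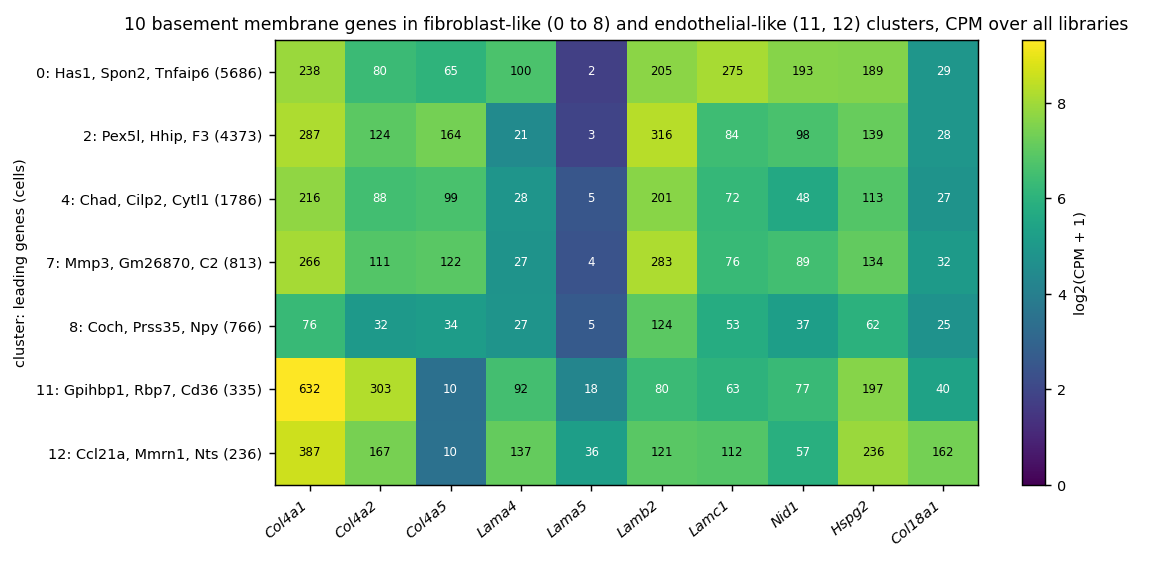
Level in CPM over all libraries (numbers in the cells) of the 10 genes in 5 fibroblast-like and 2 endothelial-like clusters, with color as log2(CPM + 1). Cluster 0 has 193 CPM of Nid1 and the highest Lamc1 of the clusters shown, and clusters 11 and 12 have 9.93 and 10.0 CPM of Col4a5.

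Among single cells, a Col4a1 UMI was found in a larger share of the cells with a Col4a2 UMI than of those without one. After thinning to 3000 UMIs, 59.0% of the fibroblast-like cells with a Col4a2 UMI and 40.7% of those without one held a Col4a1 UMI, and the former share was higher in 6 of 6 libraries. In VSMC1-like cells the shares were 68.6% and 64.9% (6 of 6 libraries) and in VSMC2-like cells 67.7% and 62.7% (5 of 6). In endothelial-like cells they were 81.7% and 56.8%, the former higher in all 5 libraries with a value. Library 6 held no thinned endothelial-like cell with a Col4a2 UMI. Clusters within a class differ in both genes, and their part in these shares was not tested.

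Across 30 sums, of 5 classes in 6 libraries, the gene whose log2 level was most like that of Col4a1 among 10384 genes was Col4a2 (Pearson r = 0.96), followed by Hspg2 (0.95), Fam198b (0.94), Cnn3 (0.94) and Nbeal1 (0.94). Lama5 was most like Itga3, an integrin alpha chain that pairs in a laminin receptor (0.94), then Kalrn (0.93), Cdh13 (0.92), B230219D22Rik (0.92) and Msrb3 (0.92). Of the other genes described here, Lama4 had an r with Col4a1 of 0.86 and Nid1 of 0.45. These are descriptions without a test, since the sums share libraries, depth and classes.

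Other laminin chains had their own class patterns. Lama1 had 0 UMIs in every class. Lama3 reached a median of at most 6.79 CPM and Lamb3 of 2.15 CPM in any named class. Lama2, the alpha2 chain, was at 90.7 to 208 CPM (median 110 CPM) in fibroblast-like and 6.27 to 15.2 CPM (median 12.2 CPM) in VSMC1-like cells. Lamb1 was at 38.3 to 95.4 CPM in endothelial-like, 31.5 to 62.2 CPM in fibroblast-like and 0.521 to 1.90 CPM in VSMC1-like cells. Lamc3 was at 59.99 to 133 CPM in fibroblast-like and 18.8 to 48.3 CPM in VSMC1-like cells.

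The partners of Col4a5 differed by class. Col4a6, which joins Col4a5 in 1 trimer, was at 74.7 to 131 CPM (median 89.3 CPM) in VSMC1-like, 35.3 to 81.6 CPM (median 42.6 CPM) in VSMC2-like and 25.6 to 84.6 CPM (median 41.8 CPM) in fibroblast-like cells, and between the smooth muscle subtypes its log2 ratio was -1.15 to -0.68 (median -1.04, lower in 6 of 6 libraries). Col4a3 and Col4a4, which join it in the other, were at 37.3 to 111 CPM and 51.9 to 131 CPM in fibroblast-like and 3.33 to 9.44 CPM and 4.24 to 13.6 CPM in VSMC1-like cells. In all 6 libraries Col4a4 was higher in VSMC2-like cells (log2 ratio 0.64 to 1.98, median 1.37). The fibroblast markers and the share of marked doublets were also higher in VSMC2-like cells, and their part in this ratio was not tested.

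Among 14 tested genes of 26 other basement membrane proteins, 5 were lower and 3 higher in VSMC2-like cells in all 6 libraries (median log2 ratio -0.12). Over all genes tested, 22.1% were lower and 13.3% higher. The highest ratios were those of Fbln1, a fibulin (2.02 to 3.33, median 2.64, and 2437 CPM in fibroblast-like cells), and Ntn4, a netrin that binds laminin (1.64 to 2.56, median 2.23). The lowest were those of Col15a1 (-1.94 to -1.01, median -1.68) and Npnt, an integrin ligand of basement membranes (-1.26 to -1.06, median -1.25). Sparc, which binds collagen IV, was lower in 6 of 6 libraries (median -0.33), and Agrn in 5 of 6 (median -0.27).

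Among 14 tested genes of 17 receptors, 5 were lower and 1 was higher in VSMC2-like cells in all 6 libraries (median -0.18). The shares over all genes tested were 22.1% lower and 13.3% higher. Sgcd, a sarcoglycan (-1.36 to -0.82, median -1.11), and Itga9 (-1.04 to -0.78, median -0.96) had the lowest ratios, and Dag1, dystroglycan (median 0.27, higher in 5 of 6), and Sgce (0.06 to 0.45, median 0.26, higher in 6 of 6) the highest. Against VSMC-like cells, 12 of 14 receptors tested were lower in fibroblast-like cells in all 6 libraries and 2 higher (median -1.91). In that comparison, 34.6% of all genes tested were lower and 37.9% higher. Bcam, a receptor of Lama5 chains, had 515 CPM in VSMC-like and 17.2 CPM in fibroblast-like cells. Itga6 and Itgb4, which form a laminin receptor, were at 178 and 45.7 CPM in endothelial-like cells and 1.504 and 0.434 CPM in VSMC-like cells. These 3 receptors were picked after their values were seen.

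Among 19 tested genes for collagen assembly and heparan sulfate, of 21 found, 4 were lower and 2 higher in VSMC2-like cells in all 6 libraries (median -0.14). These counts lie near the shares over all genes tested, 22.1% lower and 13.3% higher. The lowest ratios were those of Ext1, an enzyme that builds heparan sulfate (-1.27 to -0.34, median -0.88), and Sulf2, which removes sulfate from it (median -0.80, lower in 4 of 6). The highest were those of Hs2st1 (0.25 to 0.54, median 0.46) and Plod1 (median 0.21, higher in 4 of 6). In fibroblast-like cells, 11 of 19 were higher and 4 lower than in VSMC-like cells in all 6 libraries (median 0.36). Over all genes tested there, 37.9% were higher and 34.6% lower. In endothelial-like cells, 4 of 17 other basement membrane genes tested were higher and 3 lower in all 6 libraries (median -0.83). Of 16 receptors, 3 were higher and 8 lower (median -1.20), and of 20 assembly and heparan sulfate genes, 5 were higher and 3 lower (median -0.18). Over all genes tested in that comparison, 24.9% were higher and 18.8% lower. The counts of the basement membrane and the assembly genes lie near these shares. Against VSMC-like cells, 11 of 17 other basement membrane genes tested were higher and 4 lower in fibroblast-like cells (median 1.49), beside 37.9% and 34.6% of all genes tested.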

How the data were processed

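Single-cell RNA-seq libraries (10x Genomics 3′ v3 chemistry) came from 6 mice, 4 control and 2 LDS. The values are the UMI counts per gene and cell as deposited by the authors, who aligned reads to mm10 and aggregated the libraries into 1 matrix. The labels and methods name Cell Ranger 6, while the matrix header names version 4.0.0, and whether aggregation equalized depth is not given in the sources used here. Samples were grouped by the labels, but nothing pairs a barcode number with a mouse, so each library is given as it is.

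Cells with 1000 to 5000 genes, 1500 to 25000 UMIs and under 20% mitochondrial UMIs were kept, as in the study's methods. They were clustered with Seurat 5.3.0 (SCTransform v2, sctransform 0.4.2, reciprocal PCA across libraries, 30 components, 3000 variable genes, resolution 0.25), without the 10 genes and the related lists among the variable genes. The VSMC-like cells were to be split at the lowest resolution that gives exactly a pair of subclusters of at least 5% each. No resolution from 0.05 to 1 did so, and after this was seen the search went downward, to 0.04. Doublets were marked with the scrublet method in scanpy 1.11.5 (its calls in libraries 1, 3, 4 and 6, the top 5% of scores in libraries 2 and 5) and kept.

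UMIs were summed per class and library, scaled to CPM, and log2 ratios were taken within a library with a prior of 0.5 UMI. A call is the same sign in all 6 libraries, over genes with at least 10 CPM, and no test was run. For shares, each cell was thinned to 3000 UMIs, with 95% exact binomial intervals, and a count of 0 allows 3 counts. Intervals cover counting error only. The ratio calculation was tested on simulated data. Named genes were the 10 genes, all other collagen IV and laminin chains, Nid2, Col15a1, Agrn and Sparc, in each list the 2 highest and 2 lowest ratios between the smooth muscle subtypes, the 5 genes most like Col4a1 and Lama5, and the 5 genes that lead a cluster. An item under this rule is not reported here. The genes, lists and comparisons were chosen with earlier results of these data known. Lepre1 of the lists was not found. Promoter windows were read from RefSeq for 8 of the 10 genes, not for Lama4 and Lamc1. Alternatives covered scaling, prior, filters, doublets, clustering, cells with markers of another class, and leaving out each library.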

Additional observations from a re-analysis of the deposited data

Results flagged for a closer look

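Of 29 sets of 6 within-library log2 ratios, 3 held a library far from the others by Dixon's criterion (the gap to the nearest library over the whole range, above the 95% critical value), and chance flags about 1 in 20 such sets. All 3 concern library 6. For Lama4 in VSMC2-like over VSMC1-like cells, library 6 was at -1.17 and the others at -0.78 to -0.56. For Col4a1 in endothelial-like over VSMC-like cells, library 6 was at -2.12 (7 UMIs in 10 cells) and the others at 0.14 to 0.77. For Col4a2 in the same comparison, library 6 was at -3.42 (2 UMIs) and the others at 0.03 to 0.59. The endothelial ratios of Col4a5 were not checked, since library 6 held 0 UMIs.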

How the results depend on the processing

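For VSMC2-like over VSMC1-like cells, the median log2 ratio of those of the 10 genes that were tested was -0.25. It moved to -0.11 with log-normalized counts without integration and to -0.0851 with all genes kept in the clustering. In the latter setting 3 of the 10 genes in place of 5 were lower in all libraries, beside 1168 in place of 1700 of all genes tested. The number of the 10 genes higher in all libraries, 1, became 2 with no filter on low genes (Nid1 then counts), 3 with log-normalized counts, 2 with cells holding markers of another class left out, and 0 with the mean over cells and without cells with a Higd1b or Vtn UMI. Of all genes tested, 1023 were higher in all libraries in the main setting and 1803 with no filter. The count was 899 with log-normalized counts and 849 with cells holding markers of another class left out. It was 1024 with the mean over cells and 1000 without cells with a Higd1b or Vtn UMI. For endothelial-like over VSMC-like cells, no filter gave 2805 genes lower, and leaving out cells with markers of another class gave 1389 genes higher and 0 of the 10 (Nid1 in 5 of 6 libraries), while leaving out 1 library at a time gave 1 to 3 of the 10 higher and a median over the 10 of -0.02 to 0.04, on both sides of 0. For fibroblast-like over VSMC-like cells, no filter gave 6076 genes higher. The other counts of the 10 genes and of all genes stayed within 1.5 times when 1 library was left out. No ratio of the 10 genes that had a common direction changed sign at the median. Col4a5 in endothelial-like cells with marker-holding cells left out had 0 UMIs in at least 3 libraries and is not given. Library 6 held 10 endothelial-like cells. Cell classes were compared within each library throughout. No paired analysis was possible because, for the groups of mice, no library carries a replicate number of the labels.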
